A study of Mus musculus with 6 samples.

Results

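The nuclear genes for subunits of the mitochondrial respiratory chain and ATP synthase were compared between livers of ARRB1 knockout and wild-type mice on a high-fat diet (HFD). The genes were taken by the spelling of their symbols (Ndufa, Ndufb, Ndufc, Ndufs and Ndufv with a number, Sdha to Sdhd, Uqcr, Cyc1, Cox4 to Cox8 and Atp5) and by their level, with 1 FPKM as the lowest mean allowed. FPKM is the number of fragments scaled to gene length and library. Of the 46095 gene symbols in the table, 83 had such a spelling and 75 of these passed the level filter. The 75 are called members below, and 10633 genes of all kinds passed the same filter. By complex, 34 members belong to complex I, 4 to complex II, 9 to complex III, 11 to complex IV and 15 to complex V. The symbols place each member, except that Ndufa4 was counted with complex IV, to which its protein belongs, and that Atp5s and Atp5sl are named for ATP synthase but are not subunits of it.

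The series holds 6 RNA-seq libraries from C57BL/6 mice fed HFD for 26 weeks, 3 labelled wild type (HFD-WT) and 3 labelled knockout (HFD-ARRB1-KO), so both groups share the diet and no other diet was compared. ARRB1 encodes beta-arrestin 1, a scaffold that binds activated G protein-coupled receptors, and the series title places it in the progression of steatohepatitis. The labels give liver as the tissue and hepatocyte as the cell type. They name ARRB1-/- as the genotype of knockout replicate 1, ARRB2-/- of replicate 2 and ARRB3-/- of replicate 3, while all 3 titles and the series text name ARRB1. Whether the deletion is in the whole animal, and whether each library is a separate animal, is not given in the sources used here. P-values therefore set the difference between the groups against the spread among these libraries, which may not be a spread among animals.

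The respiratory chain sits in the inner mitochondrial membrane. Complexes I and II pass electrons from NADH and succinate to ubiquinone, complex III passes them on to cytochrome c and complex IV to oxygen, and complex V (ATP synthase) uses the proton gradient that complexes I, III and IV build. Mitochondrial DNA encodes some subunits of complexes I, III, IV and V, and the remaining subunits, all of those of complex II included, are encoded in the nucleus. In hepatocytes the chain takes up the electrons released by fatty acid oxidation, which makes it a natural subject in a fatty liver.

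Arrb1, the targeted gene (chromosome 7, GRCm38), gave 3.86, 22.7 and 16.9 FPKM for the wild-type replicates, in order, while the knockout replicates gave 0.918, 1.05 and 1.16 FPKM. All knockout libraries lay below all wild-type libraries, with wild-type replicate 1 nearest to them. Arrb2, which the label of knockout replicate 2 names, was under the filter. Its wild-type replicates gave 0.272, 0.613 and 0.432 FPKM and its knockout replicates 0.362, 0.717 and 0.552 FPKM, in order. Which of the labels and titles is right was not tested. Knockout replicate 1 stood apart from the others in depth, at 39.7% of the deepest library against 79.6% to 95% in the 4 libraries below knockout replicate 2, the deepest. It also held heart muscle RNA. Over 10 heart muscle genes, chosen after their values were seen, it summed to 48.2 FPKM against 0.255 to 1.23 FPKM in the other libraries. All 8 hepatocyte markers were detected, with sums of 46119 to 54838 FPKM in wild-type and 45684 to 53334 FPKM in knockout libraries. Sums of 7 Kupffer cell markers (199.5 to 225.8 and 208 to 230.5 FPKM), 6 endothelial markers (76.2 to 86.5 and 83.7 to 96.8 FPKM) and 6 stellate cell markers (112 to 135 and 115 to 169 FPKM) show that RNA of other liver cells was present in every library. By limma, Lyve1 and Pecam1 of the endothelial markers were called higher, Vsig4 of the Kupffer cell markers and Tat of the hepatocyte markers were called lower, and the part of this in the values of the members was not tested. Of 6 stellate cell markers, 4 tested cholangiocyte markers, 2 of other leukocytes and 3 of red blood cells, 0 were called. Adipocyte markers summed to at most 1.63 FPKM and skeletal muscle markers to at most 1.96 FPKM in any library.

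No member differed between the genotypes at the threshold used. Of the 75 members, 0 were called higher and 0 lower in the knockout by limma at an adjusted p under 0.05, against 6.90% of all tested genes called in either direction, 5.30% higher and 1.60% lower. At an unadjusted p under 0.05 there were 6 members, 3 higher (Ndufa10, Ndufs1 and Uqcrfs1) and 3 lower (Ndufv3, Atp5g2 and Atp5l), which is 8% of the members against 25.3% of all tested genes (19.1% higher and 6.19% lower). The knockout mean was above the wild-type mean on the log2(FPKM + 1) scale for 32 members and below it for 43. Over all 10633 tested genes it was above for 6766 and below for 3867. The median log2 fold change, knockout minus wild type, was -0.022 over the members and 0.075 over all tested genes. The lowest was -0.54 (Atp5g2) and the highest 0.32 (Uqcrc1). Scaling moved both medians, to 0.031 and 0.13 on the TPM scale, -0.13 and -0.012 with median-of-ratios scaling, and -0.075 and -0.0061 with quantile normalization. The sign of the median of complexes I, III, IV and V depended on the scaling, and that of complex II stayed above 0 under each of these. In bulk RNA, a difference in the number of cells of a type and a difference in RNA per cell cannot be told apart.

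The precision of these differences can be read from their intervals. The 95% interval of the log2 fold change lay wholly between -0.5 and 0.5 for 56 of the 75 members (74.7%) and for 59.8% of all tested genes. It lay between -1 and 1 for 74 members, the exception being Ndufc1, with an interval of -1.07 to 0.52. Whole reads could be recovered from the FPKM steps for all 75 members. In the shallowest library, knockout replicate 1, members had from 12 reads (Atp5g2) to 18393 reads (Atp5b), with a median of 775. No member was called when any single library was left out.

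**Figure D1:**
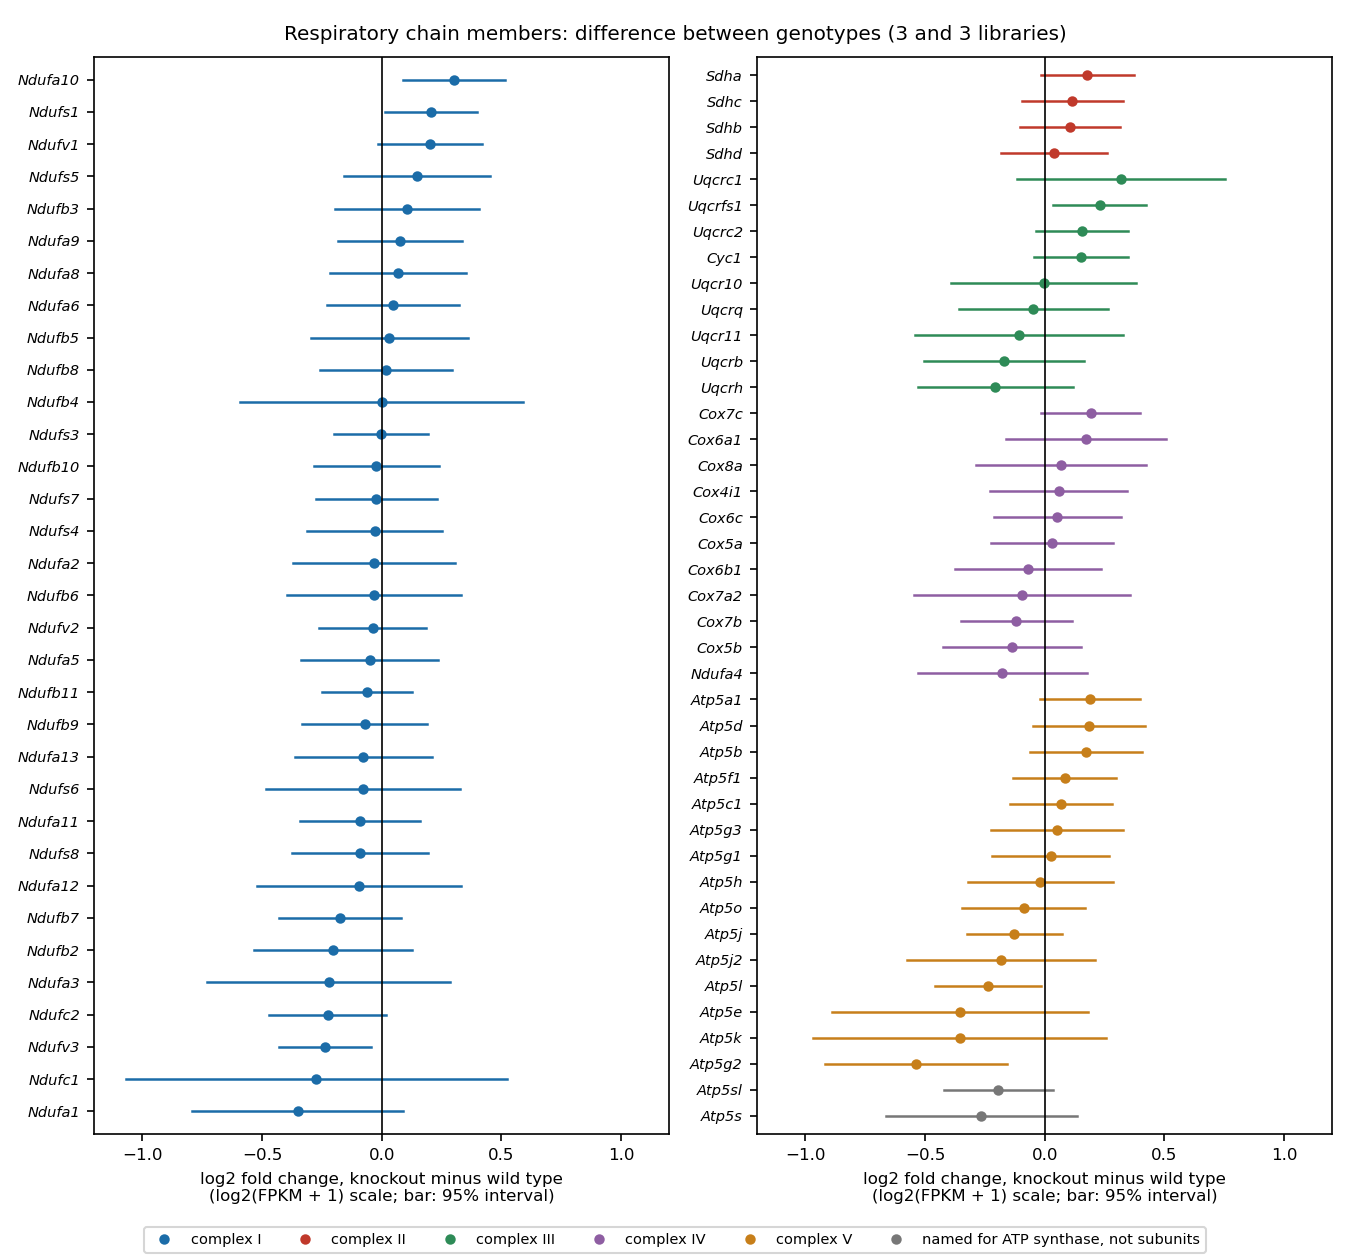
Log2 fold change of 74 of the 75 members, knockout minus wild type on the log2(FPKM + 1) scale, with its 95% interval from limma (3 libraries per group) and colour by complex. Points lie between -0.54 (Atp5g2) and 0.32 (Uqcrc1), and none of these genes passed an adjusted p of 0.05.

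Complex I oxidises NADH and is the largest complex of the chain. Its 34 members had a median log2 fold change of -0.031, with 11 above 0 and 23 below. The 7 nuclear-encoded core subunits, which hold the flavin and the iron-sulfur clusters, had a median of -0.0023, and the 27 accessory subunits a median of -0.051. The part of transcript length in this split was not tested. Among the core subunits, Ndufs1 and Ndufv1 were higher in every knockout than in every wild-type library, and Ndufv2, Ndufs3, Ndufs7 and Ndufs8 overlapped, with log2 fold changes of -0.038, -0.0023, -0.022 and -0.090.

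Ndufa10 had the smallest p of all members. It is an accessory subunit with the fold of a nucleoside kinase, and lies on chromosome 1, 92439010 to 92473860, minus strand (GRCm38). Its level was 102, 85.6 and 97.1 FPKM in the wild-type libraries and 117, 117 and 116 FPKM in the knockout libraries. The knockout libraries lay close together and above all wild-type libraries. The means were 94.8 ± 8.33 and 117 ± 0.848 FPKM (SD, n = 3 each), the log2 fold change 0.30 ± 0.0911 (SE) and the adjusted p 0.0909 (limma). It was called only when each library was rescaled to the same sum (TPM), at 0.36 with an adjusted p of 0.0449, and over the other alternatives its adjusted p ran from 0.0795 to 0.228.

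The promoter of Ndufa10 is shown with that of Uqcrfs1, the member of complex III with the smallest p, because both hold the same palindrome, and with that of Atp5g2, the member with the lowest fold change. Each is the 250 bases before the RefSeq transcription start on GRCm38, 5′ to 3′ on the strand of the gene. Gene positions in this text come from another annotation (GENCODE), whose starts differ. The Atp5g2 window lies wholly inside its gene span there (102662864 to 102672352). Those of Ndufa10 and Uqcrfs1 overlap their spans in part. Capitals mark TGACGTCA (a cAMP response element) in Ndufa10 and Uqcrfs1 and the NRF-1 motif in Atp5g2.
Ndufa10, chr1:92473759-92474008, minus strand: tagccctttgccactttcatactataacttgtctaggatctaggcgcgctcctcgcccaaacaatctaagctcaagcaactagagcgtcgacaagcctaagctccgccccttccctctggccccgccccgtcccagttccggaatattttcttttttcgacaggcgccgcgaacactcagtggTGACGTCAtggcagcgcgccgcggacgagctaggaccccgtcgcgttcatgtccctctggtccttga
Uqcrfs1, chr13:30545317-30545566, minus strand: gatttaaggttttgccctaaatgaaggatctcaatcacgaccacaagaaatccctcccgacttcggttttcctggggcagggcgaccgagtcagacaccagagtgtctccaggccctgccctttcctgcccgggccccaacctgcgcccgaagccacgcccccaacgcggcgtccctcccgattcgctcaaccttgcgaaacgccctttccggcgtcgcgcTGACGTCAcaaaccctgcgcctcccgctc
Atp5g2, chr15:102671048-102671297, minus strand: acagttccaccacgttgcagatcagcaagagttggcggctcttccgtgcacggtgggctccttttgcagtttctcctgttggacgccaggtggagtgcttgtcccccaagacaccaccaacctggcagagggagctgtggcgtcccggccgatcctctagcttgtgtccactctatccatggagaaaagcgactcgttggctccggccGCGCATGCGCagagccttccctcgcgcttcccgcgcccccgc
The palindrome begins 67 bases before the start in Ndufa10 and 29 bases before it in Uqcrfs1, and the NRF-1 motif 42 bases before it in Atp5g2.

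Of the 75 members, 60 had an entry among the RefSeq promoters, with 64 windows of 300 bases (250 before the start to 50 after). Motifs were searched on both strands. NRF-1 is a transcription factor of nuclear genes for mitochondrial proteins, and its motif, a near-palindrome of 10 letters, was found in 28.1% of the member windows, 10.2% of the windows of tested genes and 4.6% of all 32851 windows. The GABP motif CCGGAAG was in 25% of member windows and 17.6% of tested-gene windows, the YY1 motif AAGATGGCG in 10.9% and 3.22%, the estrogen-related receptor motif TNAAGGTCA in 4.69% and 0.857%, and TGACGTCA in 6.25% and 3.01%. The 4 members with TGACGTCA were Ndufa10, Ndufa11, Ndufb2 and Uqcrfs1. Their log2 fold changes were 0.30, -0.090, -0.20 and 0.23, so the genes that share this palindrome lay on both sides of 0. The 17 members with the NRF-1 motif had a median log2 fold change of 0.040 and the 43 without it a median of -0.063. The windows were matched by gene symbol, a motif match is only a run of letters, and none of these shares was tested.

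Ndufs1, the iron-sulfur subunit that takes electrons from the flavin, was at 45.1, 40.9 and 44.1 FPKM in wild type versus 47.3, 51.9 and 51.4 FPKM in knockout libraries. The groups did not overlap, and knockout replicate 1 was the nearest to wild type. The log2 fold change was 0.21 ± 0.0834 (SE, adjusted p = 0.175, limma). Ndufv1, which binds NADH and the flavin, was at 94.6, 84.5 and 100.1 FPKM in wild type versus 105, 112 and 103 FPKM in knockout (log2 fold change 0.20, adjusted p 0.229 by limma). In these core genes the knockout mean was 1.16 and 1.15 times the wild-type mean, a difference that did not pass the test.

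Of the 27 accessory subunits, 2 lay below wild type without overlap, a share near the 7.81% of all tested genes. Ndufv3, a small subunit beside the flavin site, was at 20.1, 19.9 and 22.6 FPKM in wild type versus 17.7, 17.8 and 17.2 FPKM in knockout libraries. Its groups did not overlap (log2 fold change -0.24 ± 0.0831, SE; adjusted p = 0.130, limma). Ndufc2, an accessory subunit of the membrane arm, was at 65.1, 59.1 and 75.6 FPKM in wild type versus 56.5, 58.5 and 54.7 FPKM in knockout, again without overlap (-0.23, adjusted p 0.226). Ndufc2 is the member nearest to the targeted locus, 2.13 Mb from Arrb1 on chromosome 7, 97400003 to 97407802, plus strand. The lowest fold change in complex I was that of Ndufa1, a small membrane-arm subunit, at 30.7, 31.0 and 42.1 FPKM in wild type versus 20.1, 31.4 and 29.9 FPKM in knockout. Its groups overlapped, with knockout replicate 1 the lowest and wild-type replicate 3 the highest (-0.35 ± 0.190, SE; adjusted p = 0.289, limma).

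The remaining accessory subunits of complex I overlapped between the groups. Their log2 fold changes ran from -0.27 (Ndufc1) to 0.15 (Ndufs5). Ndufb9, a subunit of the membrane arm and the member of complex I with the highest mean, was at 196, 174 and 228 FPKM in wild type versus 192, 185 and 189 FPKM in knockout (-0.070, adjusted p 0.736 by limma). The wild-type libraries enclosed the knockout libraries, and its sign turned to 0.030 without wild-type replicate 3. Ndufs4 and Ndufs6, accessory subunits beside the NADH-oxidising tip, were at -0.029 and -0.078. Ndufa9, which binds NADPH near the junction of the arms, was at 0.077.

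Complex II, succinate dehydrogenase, belongs to both the tricarboxylic acid cycle and the chain. On the FPKM as deposited, all 4 of its members had a log2 fold change above 0, with a median of 0.11, and none was called. Sdha, the flavin subunit that oxidises succinate (chromosome 13, 74322254 to 74350280, minus strand), was at 211, 202 and 224 FPKM in wild type versus 238, 240.1 and 243 FPKM in knockout libraries. The groups did not overlap and the knockout libraries spanned a narrow range (0.18 ± 0.0839, SE; adjusted p = 0.232, limma). Sdhb, the iron-sulfur subunit, went from 153 ± 11.8 to 164 ± 3.81 FPKM (SD, n = 3 each; 0.11, adjusted p 0.499). Sdhc, a membrane anchor, went from 137 ± 10.5 to 148 ± 6.73 FPKM (0.12, adjusted p 0.468). Sdhd, the other anchor, was at 124 ± 3.66 and 128 ± 12.5 FPKM (0.040, adjusted p 0.831). The median of the 4 was 0.0062 when libraries were scaled by median of ratios and 0.036 when the trend with transcript length was removed.

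Complex III passes electrons from ubiquinol to cytochrome c. Of its 9 members 4 had a log2 fold change above 0 and 5 below, and none was called. Uqcrfs1, the Rieske iron-sulfur protein (chromosome 13, 30540308 to 30545362, minus strand), was at 148, 149 and 161 FPKM in wild type versus 171, 185 and 181 FPKM in knockout. The groups did not overlap, and the means were 153 ± 7.03 and 179 ± 7.30 FPKM (SD, n = 3 each; log2 fold change 0.23 ± 0.0843, SE; adjusted p = 0.143, limma). Uqcrc2, a core protein, was at 114, 107 and 111 FPKM against 118, 131 and 121 FPKM, without overlap (0.16, adjusted p 0.282). Cyc1, cytochrome c1, was at 153, 142 and 162 FPKM against 169, 171 and 167 FPKM, also without overlap (0.15, adjusted p 0.307). Uqcrc1, the other core protein, was at 3.70, 2.92 and 2.65 FPKM against 5.73, 3.24 and 3.58 FPKM, with overlap. The small subunits Uqcr10, Uqcrq, Uqcr11, Uqcrb and Uqcrh had log2 fold changes of -0.0042, -0.048, -0.11, -0.17 and -0.21. Their longest coding transcripts have 434, 1521, 445, 535 and 547 bases. Those of the 4 members above 0 have 1363 (Uqcrfs1) to 1896 bases (Uqcrc2), and the part of length in this split was not tested. The median over the 9 members was -0.0042, which became -0.15 when wild-type replicate 2 was left out, 0.15 when replicate 3 was and 0.12 when knockout replicate 1 was.

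Complex IV, cytochrome c oxidase, had a median of 0.031 over 11 members, with 6 above 0 and 5 below. Cox7c, a small subunit of the membrane domain, was the only member of complex IV without overlap, at 10.1, 10.4 and 11.68 FPKM in wild type versus 11.69, 12.8 and 12.7 FPKM in knockout (0.19, adjusted p 0.225 by limma). The highest wild-type and the lowest knockout library differed there by less than 0.1 FPKM. Cox4i1, the regulatory subunit with the highest mean of the complex, was at 351, 319 and 415 FPKM in wild type versus 348, 406 and 370.4 FPKM in knockout (0.058, adjusted p 0.805). Cox6a1, the liver form of subunit VIa, was at 234, 219 and 307 FPKM against 253, 305 and 292 FPKM (0.17, adjusted p 0.495). Cox7b was at 51.5 ± 3.48 and 47.5 ± 4.67 FPKM (SD, n = 3 each; -0.12, adjusted p 0.501). Cox5a, Cox5b, Cox6b1, Cox6c, Cox7a2, Cox8a and Ndufa4 had log2 fold changes between -0.18 (Ndufa4) and 0.069 (Cox8a), with overlap.

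Subunits of cytochrome c oxidase that exist as tissue isoforms were almost wholly of the liver form. Cox4i1 exceeded 318 FPKM in every library while Cox4i2, its lung-type counterpart, reached at most 0.0796 FPKM. Cox6b2, Cox7b2 and Cox8c, known from testis, were at 0 to 0.245 FPKM, and 0 in every library for Cox7b2 and Cox8c. The heart and muscle isoforms gave an uneven picture. Cox6a2 was at 0.873 FPKM in knockout replicate 1 and at most 0.150 FPKM elsewhere, and Cox8b at 1.19 FPKM in knockout replicate 1 and 0 in the other libraries. Cox7a1 was at 0.0820, 0 and 0.902 FPKM in wild type versus 2.75, 1.09 and 0 FPKM in knockout. None of these isoforms passed the level filter. Knockout replicate 1 also held Mb (myoglobin) at 15.5 FPKM, Actc1 (cardiac actin) at 8.52, Myl2 at 5.95, Myh6 at 5.69 and Ckm at 1.78 FPKM. Mb, Myl2, Myh6 and Ckm were at 0 in the other libraries. What part this RNA has in the values of the members was not tested, and without that library 0 members were called.

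**Figure D2:**
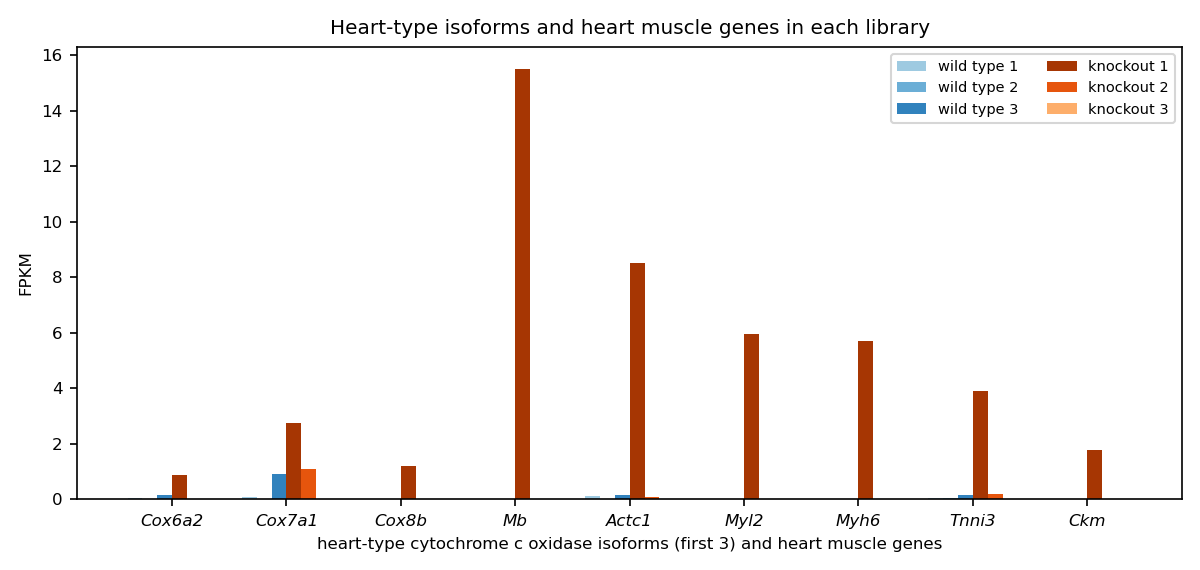
Level in FPKM of the heart-type isoforms Cox6a2, Cox7a1 and Cox8b and of 6 heart muscle genes in each of the 6 libraries (1 bar per library). Knockout replicate 1 is the highest library for each of these genes, up to 15.5 FPKM for Mb.

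Complex V splits into the F1 head, which makes ATP, and the membrane part with its stalk. Of the 5 F1 genes, 4 were above 0 (median 0.17), and of the 10 others 3 were above 0 (median -0.11). Of all 10633 tested genes, 6766 were above 0. The 4 F1 genes above 0 have longest coding transcripts of 1410 to 2674 bases, and that of Atp5e has 421 bases. Those of the 10 others run from 371 (Atp5k) to 4715 bases (Atp5g1). The part of transcript length in this split was not tested. Atp5b, the catalytic beta subunit and the most abundant member, was at 630.5, 601 and 699 FPKM in wild type versus 704, 754 and 715 FPKM in knockout. The groups did not overlap (0.17, adjusted p 0.322 by limma). Atp5a1, the alpha subunit, was at 414, 382 and 415 FPKM against 464, 474 and 444 FPKM, also without overlap (0.19, adjusted p 0.232). Atp5d and Atp5c1, the delta and gamma subunits, were at 0.18 and 0.069 with overlap. Atp5e, the small epsilon subunit, was the F1 gene below 0, at 115, 105 and 158 FPKM in wild type versus 68.8, 119 and 111 FPKM in knockout (-0.35, adjusted p 0.376).

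The membrane subunit c of ATP synthase is encoded by 3 genes that give the same mature protein, and their levels differed widely. Atp5g3 was at 391 ± 52.3 and 403 ± 21.9 FPKM in wild type versus knockout, Atp5g1 at 73.3 ± 7.93 and 74.4 ± 4.75 FPKM, and Atp5g2 at 2.48 ± 0.778 and 1.36 ± 0.0593 FPKM (SD, n = 3 each). Atp5g3 and Atp5g1 had log2 fold changes of 0.052 (adjusted p 0.819) and 0.025 (adjusted p 0.911). Atp5g2, on chromosome 15, 102662864 to 102672352, minus strand, was at 2.37, 1.77 and 3.31 FPKM in wild type versus 1.33, 1.32 and 1.43 FPKM in knockout libraries. Its groups did not overlap, and the values stand for 51, 32 and 65 reads against 12, 30 and 27 reads. The log2 fold change was -0.54 ± 0.164 (SE, adjusted p = 0.0928, limma) and became -0.78 with a pseudocount of 0.1. Atp5g2 was thus the rarest of the 3 genes. The level of Atp5g2 is just above the filter, next to Atp5s at 1.92 FPKM and Uqcrc1 at 3.64 FPKM, while Cox7a1 at 0.804 FPKM is the first below it.

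The other membrane and stalk subunits of complex V were mostly below 0. Atp5l, subunit g, was at 15.6, 14.9 and 17.6 FPKM in wild type versus 14.6, 12.7 and 13.03 FPKM in knockout, without overlap (-0.24 ± 0.0957, SE; adjusted p = 0.174, limma). Atp5k, subunit e, was at 16.2, 13.6 and 17.3 FPKM against 7.14, 14.9 and 16.0 FPKM, where knockout replicate 1 alone was low. Atp5j (coupling factor 6), Atp5j2 (subunit f), Atp5o (the protein that joins F1 to the stalk), Atp5h (subunit d) and Atp5f1 (subunit b) had log2 fold changes of -0.13, -0.18, -0.088, -0.018 and 0.084. Atp5s and Atp5sl, which are not subunits, were at -0.26 and -0.19 with overlap between the groups.

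Levels among partners of a complex differed more than the genotypes did. In complex III the mean over all libraries ran from 3.64 FPKM (Uqcrc1) to 166 FPKM (Uqcrfs1), with a median of 101 FPKM, although both proteins are present in equal number in the complex. In complex IV it ran from 11.5 FPKM (Cox7c) to 368 FPKM (Cox4i1), in complex I from 8.67 FPKM (Ndufb4) to 194 FPKM (Ndufb9), and in complex V from 1.92 FPKM (Atp5g2) to 684 FPKM (Atp5b). Ndufa7, a complex I subunit that failed the filter, was at 0 to 0.138 FPKM. FPKM is already scaled to length. How reads that match several genes were counted is not given in the sources used here. Levels of members with near-identical copies in the genome are therefore uncertain. In complex II the means lay between 126 FPKM (Sdhd) and 226 FPKM (Sdha).

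The level of the members as a set varied among libraries of the same genotype. Relative to the wild-type mean of each gene, the log2 median over the members was -0.025, -0.14 and 0.14 for the wild-type replicates, in order, with -0.097, 0.10 and 0.017 for those of the knockout. The same medians over all tested genes were -0.0055, -0.023, 0.025, 0.040, 0.13 and 0.060. Wild-type replicate 3 was the highest of the 6 libraries for 45 of the 75 members and knockout replicate 2 for 20. Wild-type replicate 2 was the lowest for 35 members and knockout replicate 1 for 25. The range among wild-type libraries thus enclosed the medians of all knockout libraries. The median log2 fold change of the members turned with the library left out. It was -0.097 when wild-type replicate 2 was left out, 0.080 when wild-type replicate 3 was and 0.062 when knockout replicate 1 was. Over all tested genes the median was 0.072, 0.092 and 0.093 in those cases.

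**Figure D3:**
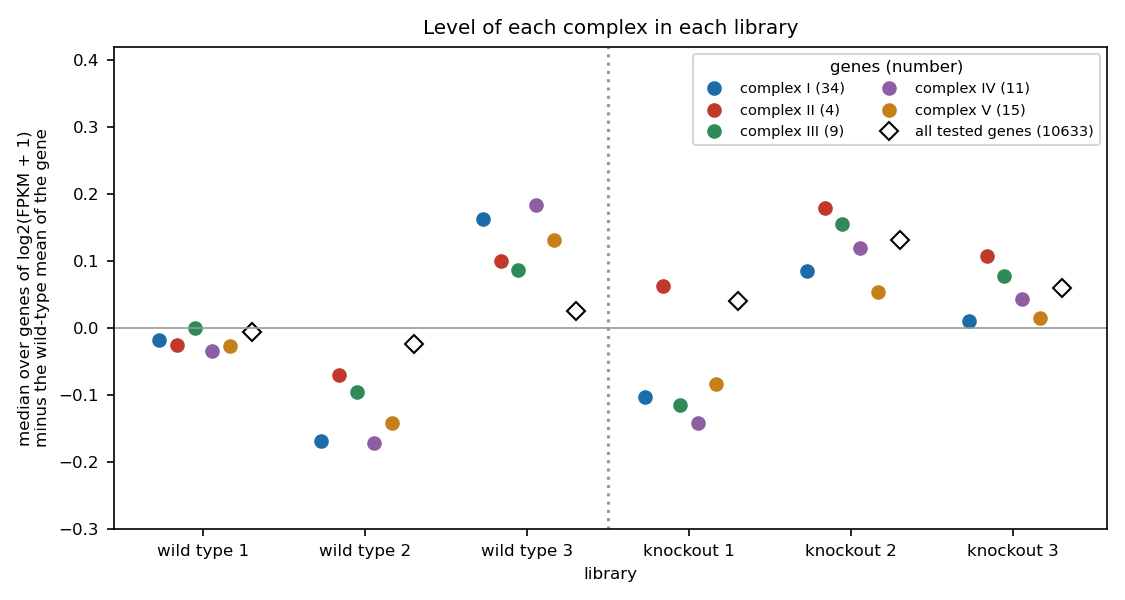
Median over the genes of each complex of log2(FPKM + 1) minus the wild-type mean of the gene, per library, with the same over all 10633 tested genes (diamonds). For complexes I, IV and V the wild-type libraries span the values of all 3 knockout libraries, with wild-type replicate 2 low and replicate 3 high.

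Fold change among the members varied with transcript length. The longest annotated coding transcript of a member had a median of 918 bases, against 3037 bases over the tested genes with a length. This length is not always the one behind the FPKM. In wild-type replicate 1, Ndufb2 (4371 bases) had 815 reads at 50.4 FPKM, and Ndufa11 (918 bases) had 953 reads at 10.7 FPKM. Single members can therefore be in the wrong length class. The 22 members under 700 bases had a median log2 fold change of -0.10, the 31 of 700 to 1500 bases one of -0.022, and the 22 of 1500 bases or more one of 0.0997. Over all tested genes of the same length classes the medians were -0.092 (166 genes), 0.035 (1320 genes) and 0.092 (8414 genes). Across the 75 members, which share the same libraries, log2 fold change and log2 length had a Pearson r of 0.41 and a Spearman rho of 0.43, against 0.046 and 0.041 across the 9900 tested genes with a length. Among the members without knockout replicate 1 these were 0.20 and 0.27, and without wild-type replicate 3 they were 0.28 and 0.31.

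The libraries differed in the same way. For members under 700 bases the median relative to wild type was 0.25 in wild-type replicate 3, -0.19 in wild-type replicate 2 and -0.28 in knockout replicate 1. For members of 1500 bases or more it was 0.11, -0.095 and 0.041 in those libraries. All tested genes under 700 bases gave 0.19, -0.15 and -0.27, close to the short members. When the trend with length was removed within each library, an alternative added after these values were seen, no member was called higher and 2 were called lower, Ndufv3 (-0.31, adjusted p 0.0378 by limma) and Atp5g2 (-0.53, adjusted p 0.0464). Over the other alternatives the adjusted p ran from 0.0518 to 0.264 for Ndufv3 and from 0.0700 to 0.237 for Atp5g2. With the trend removed, the log2 fold change of Ndufa10 was 0.21 (adjusted p 0.154). The cause of the trend was not tested.

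**Figure D4:**
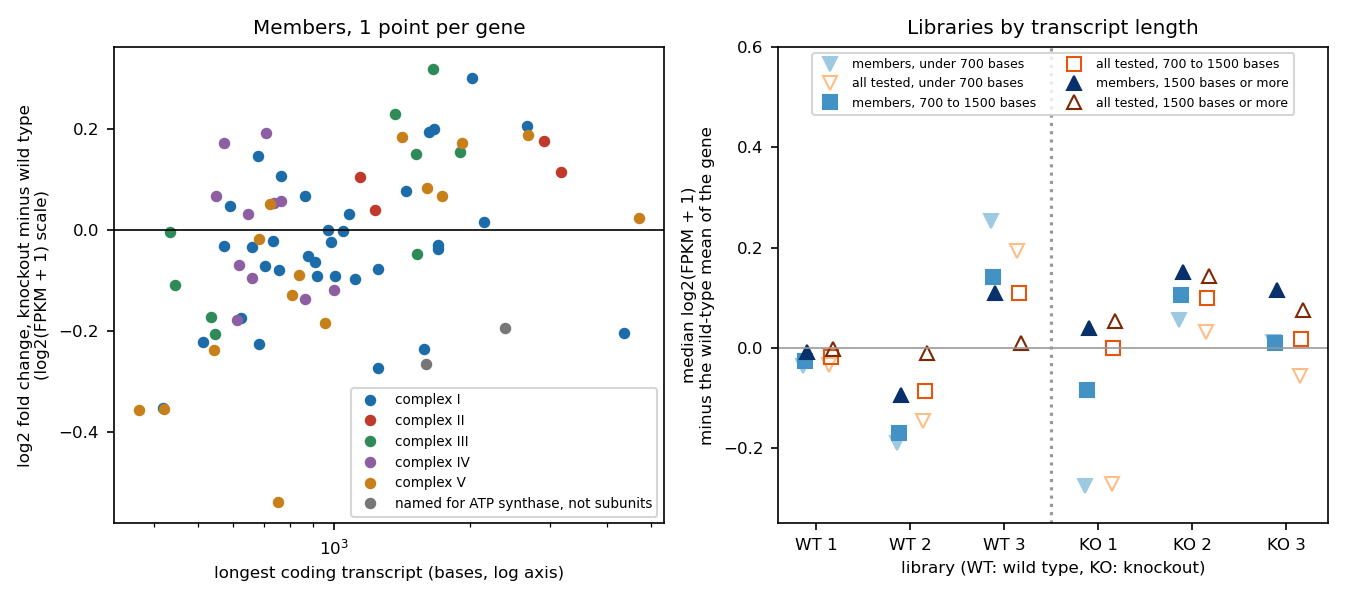
Left, log2 fold change (knockout minus wild type) of each member against the length of its longest coding transcript on a log axis, coloured by complex. Right, median log2(FPKM + 1) minus the wild-type mean per library for 3 length classes, members filled and all tested genes open. Genes under 700 bases are highest in wild-type replicate 3 and lowest in knockout replicate 1.

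Of the 75 members, 11 had knockout libraries all above the wild-type libraries and 4 had them all below. Over all tested genes, such separation upward was seen in 23.4% and downward in 7.81%. The 11 included Ndufa10, Ndufs1, Ndufv1, Sdha, Uqcrfs1, Uqcrc2, Cyc1, Cox7c, Atp5a1 and Atp5b, and the 4 were Ndufv3, Ndufc2, Atp5g2 and Atp5l. The upward count was below the background share and the downward count near it. An exact permutation test of 3 against 3 libraries cannot give a two-sided p below 0.1. The calls over all genes were 564 higher of 734, but 346 of 578 with median-of-ratios scaling and 371 of 575 with quantile normalization, so the share of calls that are higher depends on scaling.

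Most subunits encoded in mitochondrial DNA lay below 0. Of 13 such genes, 12 were below 0, with a median log2 fold change of -0.30, and 1 was called lower. Of all 10633 tested genes, 3867 were below 0, the median was 0.075 and 1.60% were called lower. That gene was ND3, a subunit of complex I, at 4.14, 3.50 and 3.51 FPKM in wild type versus 0.827, 0.738 and 0.985 FPKM in knockout (-1.35 ± 0.112, SE; adjusted p = 0.00176, limma). It passed the filter through its wild-type libraries, since the knockout mean of 0.850 FPKM is below 1 FPKM, so the group where it is high decided that it was tested. Its level is also uncertain, since how reads with several matches were counted is not known. ND3 and the adjacent ND4L and COX3 had means of 2.28, 8.93 and 31.6 FPKM over all libraries. ATP6, ATP8 and COX2 had means of 30.6, 9.25 and 44.4 FPKM, against 11136 FPKM for COX1. The levels of these low genes are uncertain in the same way. ND1 was at 2615 ± 73.7 and 2102 ± 295 FPKM (SD, n = 3 each; -0.32, adjusted p 0.187). ND2 was at 2822 ± 214 and 2178 ± 299 FPKM (-0.38, adjusted p 0.142). ATP6 was at 34.0 ± 0.466 and 27.2 ± 3.34 FPKM (-0.32, adjusted p 0.101). COX1, the catalytic subunit of complex IV, was at 11862 ± 770 and 10409 ± 1241 FPKM (-0.19, adjusted p 0.469). In 5 of the 13 genes (ND1, ND2, ND3, ATP6 and COX3) all knockout libraries lay below all wild-type libraries, against 7.81% of all tested genes. The 13 genes lie together on mitochondrial DNA and share the same libraries, so they are not separate observations. At an unadjusted p under 0.05 (limma), 4 of the 13 were lower, against 6.19% of all tested genes. ND6 was the gene above 0 (0.16, adjusted p 0.619), with overlap between the groups. It is the only protein gene on the light strand of mitochondrial DNA. Strandedness is not given, so its reads cannot be told apart from those of the opposite strand. With a filter at 5 FPKM, ND3 was not tested and the count of calls was 0.

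The lists of other subunits and assembly factors had medians near 0, with single genes further out. Subunits that the spelling leaves out (Ndufab1, Cox7a2l, Usmg5, 2010107E04Rik and Atpif1) had a median of 0.026 and 0 of 5 were called. Assembly factors had medians of 0.028 for complex I (14 genes), 0.045 for complex II (4), -0.00043 for complex III (5), 0.039 for complex IV (22) and 0.11 for complex V (4). Of all these assembly factors, 1 was called, among the 22 of complex IV, and 0 for the other complexes. Over all tested genes, 6.90% were called in either direction. Cox19 (0.58, adjusted p 0.171 by limma), Ndufaf6 (-0.38, adjusted p 0.0631) and Acad9 (0.34, adjusted p 0.0694) were the next furthest from 0 at an unadjusted p under 0.05 and were not called. Sco2, a copper chaperone of cytochrome c oxidase, rose from 4.57 ± 1.22 to 8.87 ± 2.04 FPKM (SD, n = 3 each; 0.83 ± 0.197, SE; adjusted p = 0.0491, limma). Its wild-type libraries were at 4.35, 3.47 and 5.88 FPKM and its knockout libraries at 6.78, 10.9 and 8.95 FPKM. Leaving out wild-type replicate 1 (adjusted p 0.1199), wild-type replicate 2 (0.151), knockout replicate 2 (0.153) or knockout replicate 3 (0.1204) ended the call.

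Transcriptional regulators of the chain gave 0 calls among 11 tested, against 6.90% of all tested genes, with a median of 0.014. Nrf1 (-0.11, adjusted p 0.700), Gabpa (0.13), Esrra (0.014) and Tfam (0.037), which act on nuclear or mitochondrial genes of the chain, all overlapped between groups. Ppargc1a, a coactivator of these factors, was under the filter at 0.852 ± 0.214 and 0.735 ± 0.275 FPKM (SD, n = 3 each). Ppargc1b, its relative, was also under it, at 0.565, 0.546 and 0.794 FPKM in wild type versus 0.671, 1.24 and 1.73 FPKM in knockout, and neither was tested.

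Several enzymes that feed electrons into the chain were higher in the knockout. Of 10 enzymes of fatty acid beta-oxidation, 7 were called higher and 0 lower, with a median log2 fold change of 0.44. Over all tested genes, 5.30% were called higher and the median was 0.075. Acadm, the medium-chain acyl-CoA dehydrogenase, was at 162, 141 and 168 FPKM in wild type versus 277, 248 and 233 FPKM in knockout (0.68 ± 0.109, SE; adjusted p = 0.0163, limma). Cpt1a, which admits fatty acids to mitochondria, rose from 118 ± 13.2 to 186 ± 18.7 FPKM (SD, n = 3 each), and Hadhb, the thiolase subunit of the trifunctional protein, from 17.0 ± 1.76 to 25.0 ± 1.21 FPKM (adjusted p 0.0215 and 0.0229). Acads, Acadl, Hadh and Hadha also rose, by 0.42, 0.45, 0.56 and 0.40 on the log2 scale. The number of calls in this list was 3, 0 and 3 without wild-type replicates 1, 2 and 3. It was 3, 0 and 2 without knockout replicates 1, 2 and 3, and 0 when every gene above 0 was tested. Median-of-ratios scaling gave 3 calls.

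The electron transfer flavoprotein passes electrons from those dehydrogenases to ubiquinone. Its ubiquinone reductase Etfdh rose from 140.1 ± 4.62 to 178 ± 6.57 FPKM (SD, n = 3 each; 0.35, adjusted p 0.0475 by limma), while its subunits Etfa and Etfb were at 0.046 and -0.024 (log2). Gpd2, the mitochondrial glycerol-3-phosphate dehydrogenase, rose from 8.69 ± 0.551 to 14.7 ± 1.76 FPKM (0.69, adjusted p 0.0148). Over 17 electron carriers and donors, these 2 were called higher and 0 lower, against 5.30% and 1.60% of all tested genes. The median log2 fold change of the 17 was 0.070. At an unadjusted p under 0.05 (limma), 7 were higher and 0 lower, against 19.1% and 6.19% of all tested genes. The 7 were Etfdh, Gpd2, Cycs (cytochrome c), Coq2, Coq4, Coq6 and Coq9. They also did not overlap between the groups, against 23.4% of all tested genes upward. The call of Etfdh was lost when any library was left out (adjusted p 0.0698 to 0.153), and that of Gpd2 without wild-type replicate 2 (0.0582) or knockout replicate 2 (0.0522). In the tricarboxylic acid cycle 1 of 13 genes was called, a share near the 6.90% of all tested genes. The median log2 fold change of this list was 0.28, against 0.075 over all tested genes, and 10 of the 13 were above 0. At an unadjusted p under 0.05 (limma), 8 were higher and 1 lower, against 19.1% and 6.19%. Without overlap, 7 were higher and 1 lower, against 23.4% and 7.81%. Suclg2, a subunit of succinyl-CoA synthetase, rose from 80.4 ± 3.19 to 106 ± 1.98 FPKM (SD, n = 3 each; 0.40, adjusted p 0.0275), and this call was lost when any library was left out (0.0528 to 0.101). Among 12 other abundant mitochondrial proteins, 0 were called and the median was 0.10. No difference between these lists and the members was tested.

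**Figure D5:**
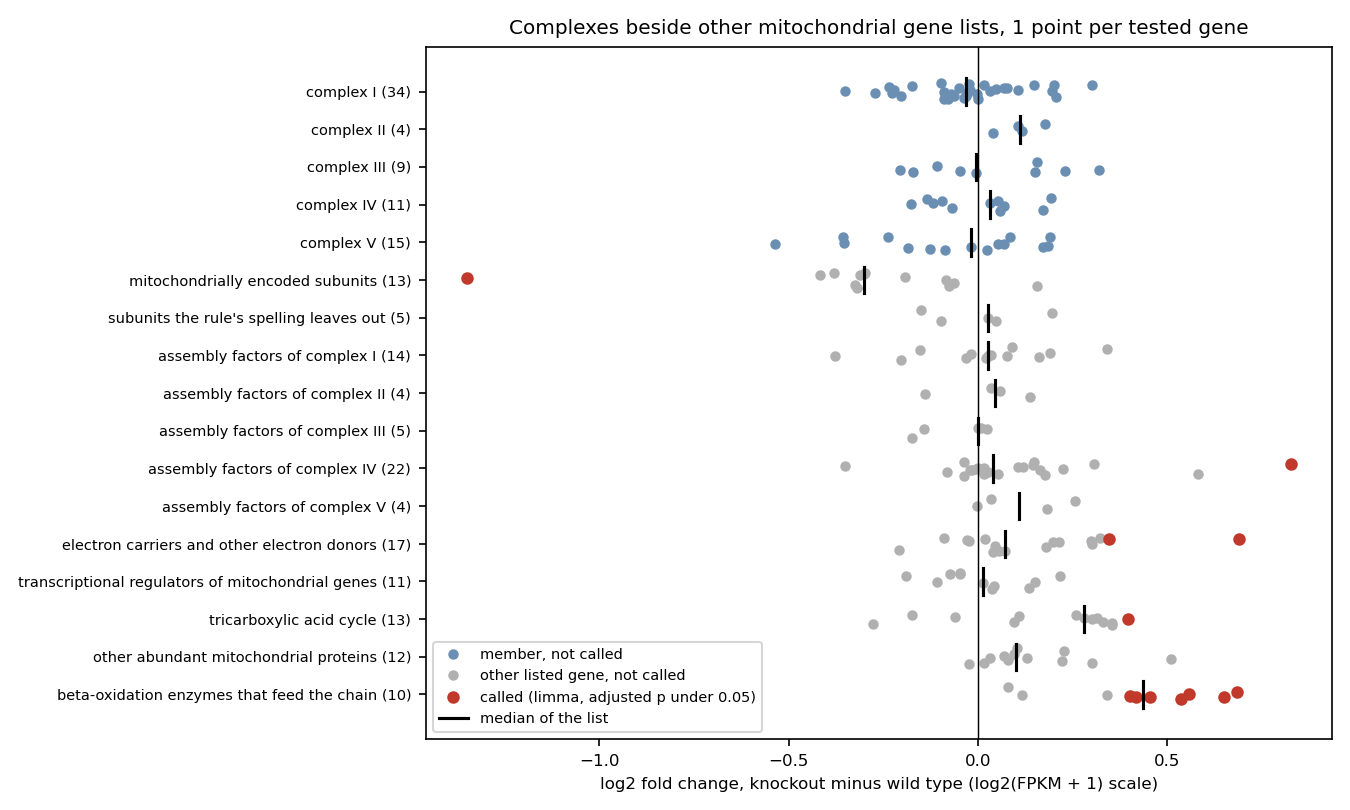
Log2 fold change (knockout minus wild type) of each tested gene in the 5 complexes (blue) and in other mitochondrial gene lists (grey), with called genes in red and the median of each list as a bar. The number of genes is in brackets. Red points lie in the lists of mitochondrially encoded subunits (ND3), assembly factors of complex IV, electron donors, tricarboxylic acid cycle and beta-oxidation (7 of 10), and none in the 5 complexes.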

How the data were processed

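Per the labels' protocols, Trizol was used for hepatocyte RNA and a TruSeq kit for libraries, with an input of 1 ug. The values are FPKM as deposited by the authors, 1 per gene symbol and library. The submitters' processing notes list Bowtie 0.12.2, HISAT2, mm8 and mm10. The role of each, the annotation, strandedness and how reads with several matches were counted are not given in the sources used here. Without strand, a gene and an antisense partner cannot be told apart.

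Groups were taken from the titles. The test was limma's (version 3.58.1 in R 4.3.3; two-sided; lmFit, then eBayes with trend) and used log2(FPKM + 1) values of 10633 genes whose mean reached 1 FPKM, with no covariate beside genotype. Benjamini-Hochberg adjustment was over all of them. The log2(FPKM + 1) scale understates changes of low genes. The fit was tested on simulated data. The members and lists were chosen with earlier results of these data known. Named genes were, per complex, the 3 members with the smallest p and the one with the highest mean, the isoform families, up to 4 called genes per list and 6 regulators. Other genes were named after their values were seen. The values of 1 member are not reported here.

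Positions and lengths come from GENCODE vM21 (GRCm38), and promoters from RefSeq (GRCm38.p6). Mitochondrial genes were matched by coordinates. Depth relative to the deepest library was read from the FPKM steps, since FPKM rises in equal steps with each read of a gene. Python 3.11.15, pandas 2.3.3, scipy 1.17.1 and matplotlib 3.10.9 were used for the rest.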

Additional observations from a re-analysis of the deposited data

How the results depend on the processing

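The count of 0 called members, in either direction, held under quantile normalization, median-of-ratios scaling, robust eBayes, eBayes without trend, filters of 0 and 5 FPKM, a pseudocount of 0.1, the replicate block and each library left out. It became 1 higher on the TPM scale and 2 lower with the length trend removed, the latter chosen after seeing the data. The median of complex II was 0.0062 with median-of-ratios scaling and 0.036 with the length trend removed, and that of complex III ran from -0.15 to 0.15 with a library left out.

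Calls in the other lists moved more. For mitochondrially encoded subunits the filter at 5 FPKM gave 0 lower. For assembly factors of complex IV, no filter, the replicate block, eBayes without trend, quantile normalization and median-of-ratios scaling gave 0, TPM gave 2, and libraries left out gave 0 to 1. For electron carriers and donors, no filter gave 0, TPM 4, the replicate block, eBayes without trend, quantile normalization, median-of-ratios scaling and the length trend removed 1 each, and libraries left out 0 to 1. For the tricarboxylic acid cycle, TPM gave 6, and median-of-ratios scaling, quantile normalization, the replicate block, the length trend removed and any library left out gave 0. For beta-oxidation, no filter gave 0, median-of-ratios scaling 3, the replicate block 1, and libraries left out 0 to 3. Over all genes, 734 were called, 1162 on the TPM scale, 402 with the replicate block, 146 with no filter and 163 to 540 with a library left out. The causes were not tested.

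Signs turned for genes near 0. With median-of-ratios scaling Cox4i1 was at -0.047, Atp5g1 -0.079, Atp5g3 -0.053, Cox8a -0.036, Esrra -0.083 and Tfam -0.059. With quantile normalization Atp5g1 was at -0.034, Esrra -0.085 and Tfam -0.056, and with the length trend removed Atp5g1 -0.067, Esrra -0.085 and Tfam -0.065. With a library left out, Ndufb9 ran from -0.16 to 0.030, Cox4i1 from -0.028 to 0.16, Atp5g1 from -0.066 to 0.080, Atp5g3 from -0.036 to 0.15, Cox6b1 from -0.17 to 0.036, Cox7a2 from -0.20 to 0.091, Cox8a from -0.064 to 0.18, Esrra from -0.082 to 0.11, Nrf1 from -0.20 to 0.0064 and Tfam from -0.011 to 0.062.

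Whether replicate numbers pair the libraries could not be decided with 3 libraries per group. Deviations of same-numbered libraries correlated at 0.17, -0.063 and 0.097, and those of differently numbered libraries at -0.24 to 0.13. The replicate block therefore rests on shared numbers alone. Depth limits Atp5g2 most, with 12 reads in knockout replicate 1.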

Other observations

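Acadvl, the very-long-chain acyl-CoA dehydrogenase and a member of the beta-oxidation list, fell into a high and a low level that did not follow genotype, an observation made after its values were seen. Wild-type replicates 1 to 3 gave 28.8, 5.52 and 6.30 FPKM, and knockout replicates 1 to 3 gave 6.87, 6.06 and 31.4 FPKM. The high libraries were thus 1 of each genotype, and the log2 fold change was 0.12 ± 0.723 (SE), the widest error in that list.

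In the tricarboxylic acid cycle, 8 of 13 genes were higher and 1 was lower at an unadjusted p under 0.05, against 19.1% and 6.19% of all tested genes. The lower gene was Fh1, fumarase, which acts on the product of complex II. It was at 120, 122 and 128 FPKM in wild type versus 100.4, 104.5 and 99.7 FPKM in knockout libraries, without overlap (-0.28 ± 0.0784, SE; adjusted p = 0.0781, limma). Sdha, in the same cycle, lay above wild type without overlap at 0.18. Slc25a4, the heart and muscle form of the adenine nucleotide carrier, was at 4.36, 4.43 and 5.27 FPKM in wild type versus 6.62, 9.24 and 5.75 FPKM in knockout (0.51, adjusted p 0.0969 by limma). Knockout replicate 1 is the library with heart muscle RNA, and the part of that RNA in these values was not tested.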
